A study of Mus musculus with 2 samples.

Results

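A total of 71 oligodendrocyte barcodes were found among the 12036 kept barcodes of 2 single-cell libraries from mouse whole brain, 53 of 5742 in the control and 18 of 6294 in the mutant library. The members were chosen by their RNA: a droplet barcode had to hold at least 500 detected genes, at most 10% mitochondrial molecules, and at least 3 of the 6 genes Mog, Mag, Ermn, Mobp, Aspa and Opalin with at least 2 unique molecular identifiers (UMIs, each standing for 1 captured RNA molecule) each. Control mice had the genotype Csf1rfl/fl, with loxP sites in Csf1r, which encodes the receptor for the growth factors CSF1 and interleukin-34. Mutant mice had the genotype Mrc1Cre:Csf1rfl/fl, with the same floxed alleles and with Cre recombinase driven by Mrc1, a gene of brain border macrophages that is not known as an oligodendrocyte gene. The sources used here give no age, treatment or number of animals per library. Per the labels the sort collected mural cells and fibroblasts by CD13 or by CD140a without O4, endothelial cells by CD31, astrocytes by ACSA-2, and 2 macrophage populations by CD11b and F4/80. No gate was meant for oligodendrocytes. With 1 library per genotype no test between genotypes exists, no p-value is given, and every difference describes these 2 libraries.

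Oligodendrocytes wrap axons of the central nervous system in myelin, a stack of membrane rich in cholesterol and in the galactolipids galactosylceramide and sulfatide. Sulfatide is the main antigen seen by the O4 antibody, which marks the lineage from late progenitors onward. Mature oligodendrocytes are known to differ among themselves, and published single-cell studies separate cells rich in Klk6, which encodes a secreted serine protease, from cells rich in Ptgds, the prostaglandin D synthase, and Il33, an alarmin cytokine. The lineage is driven by the transcription factors OLIG1, OLIG2, SOX10 and, for myelin genes, MYRF.

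Promoter sequences of 4 genes on which the results turn are shown from the RefSeq table (build GRCm38.p6), each spanning 250 bases before to 50 bases after the first listed start, 5′ to 3′ on the strand of the gene. Mog and Opalin are markers of the rule, and Klk6 and Ptgds mark the 2 kinds of cell described further on. Mog (chr17:37023349-37023648, minus strand) encodes a glycoprotein of the outer myelin surface, and Opalin (chr19:41077064-41077363, minus strand) a membrane protein of oligodendrocytes. Klk6 lies at chr7:43824294-43824593 on the plus strand and Ptgds at chr2:25469700-25469999 on the minus strand. Capitals mark matches, on either strand, to the SOX core motifs ACAAAG and AACAAT or to the MYRF motifs CTGGCAC and CTGGTAC.
Mog: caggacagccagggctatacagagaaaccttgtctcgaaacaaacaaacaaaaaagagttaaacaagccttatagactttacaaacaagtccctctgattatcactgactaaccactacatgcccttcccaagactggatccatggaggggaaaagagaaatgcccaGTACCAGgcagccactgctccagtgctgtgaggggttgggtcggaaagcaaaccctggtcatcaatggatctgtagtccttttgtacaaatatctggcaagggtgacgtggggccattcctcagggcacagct
Opalin: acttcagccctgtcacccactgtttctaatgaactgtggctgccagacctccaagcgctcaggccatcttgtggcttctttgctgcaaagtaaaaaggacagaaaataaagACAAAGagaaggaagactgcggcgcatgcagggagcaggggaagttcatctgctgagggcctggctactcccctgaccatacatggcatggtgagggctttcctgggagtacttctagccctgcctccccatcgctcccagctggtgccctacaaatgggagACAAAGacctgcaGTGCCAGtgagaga
Klk6: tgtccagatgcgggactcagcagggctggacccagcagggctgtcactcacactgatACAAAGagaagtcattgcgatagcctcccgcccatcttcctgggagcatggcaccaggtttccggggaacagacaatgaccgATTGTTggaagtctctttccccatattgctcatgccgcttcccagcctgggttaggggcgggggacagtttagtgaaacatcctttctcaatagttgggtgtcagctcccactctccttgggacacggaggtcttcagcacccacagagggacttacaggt
Ptgds: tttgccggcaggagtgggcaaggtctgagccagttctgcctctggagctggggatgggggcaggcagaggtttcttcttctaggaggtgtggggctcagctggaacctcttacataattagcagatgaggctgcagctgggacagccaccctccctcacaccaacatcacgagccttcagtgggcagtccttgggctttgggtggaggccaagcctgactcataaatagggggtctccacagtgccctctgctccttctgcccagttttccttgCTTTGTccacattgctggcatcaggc
The Mog window held CTGGTAC once, read on the other strand, and the Opalin window held ACAAAG at 2 positions and CTGGCAC once. The Klk6 window held ACAAAG and AACAAT once each, and the Ptgds window ACAAAG once. Among all 32851 promoter windows of this length, 18.7% held ACAAAG, 10.7% AACAAT, 5.01% CTGGCAC and 2.24% CTGGTAC. The matches are a description of letters and not of bound factors.

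The 6 markers separated the members from nearly all other barcodes. In the control library 41 barcodes carried all 6 markers at 2 or more UMIs and 11 carried 5, while 0 carried 4 and 1 carried 3. In the mutant library 14 carried 6, 2 carried 5, 1 carried 4 and 1 carried 3. Just outside the rule, with 2 markers, lay 8 control barcodes and 1 mutant barcode, all with 0 Mog UMIs. Just inside, the control barcode with 3 markers held 1900 UMIs in all, and the mutant barcode with 3 markers held 9175 UMIs with microglial marker RNA at 40872 CPM (UMIs of a gene or list per 1000000 UMIs of the barcode or group). A further 16 control and 4 mutant barcodes met the marker rule but exceeded the mitochondrial limit, with median mitochondrial shares of 20.8% and 19.1%, and were not members.

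**Figure D1:**
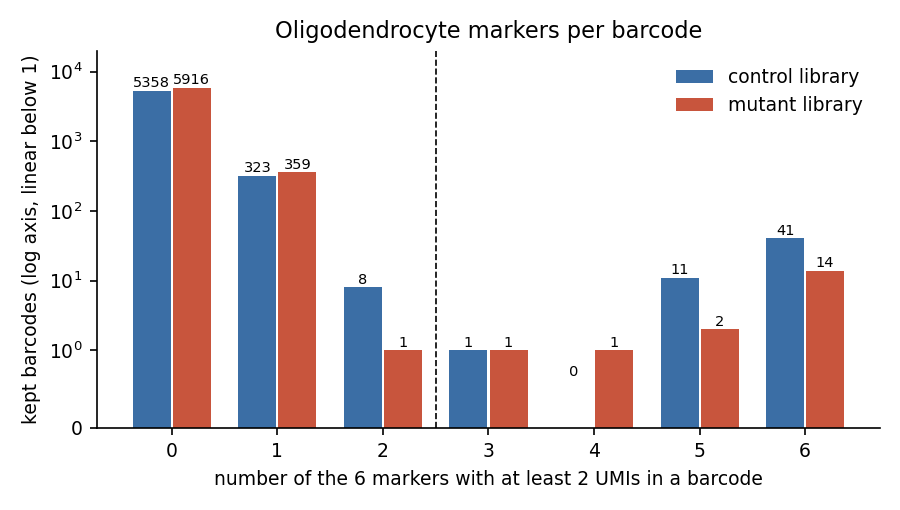
Number of kept barcodes (log axis, linear below 1) by how many of the 6 oligodendrocyte markers they carried at 2 or more UMIs, for the control and the mutant library, with the count above each bar. The dashed line is the rule: most barcodes carried 0 or 1 marker, and members mostly carried 5 or 6.

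The member barcodes were deep. They held 1173235 UMIs in the control and 385283 in the mutant library, with medians of 20461 and 20028 UMIs per barcode, against 8794 and 8940 over all kept barcodes. Median mitochondrial shares of the members were 7.04% and 5.56%, against 4.03% and 3.82% over all kept barcodes. The libraries shared 17 barcode sequences, and 0 members were among them. Csf1r, the floxed gene, stood at 1386 CPM (95% Poisson interval 1336 to 1437) in control and 1126 CPM (1047 to 1209) in mutant barcodes that met the border macrophage marker rule, and at 2228 and 1749 CPM in microglia. Which part of Csf1r is floxed is not given in the sources used here, and 3′ counts can miss a deletion further upstream, so this does not check the genotype label.

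Oligodendrocytes made up 0.923% of the control library (exact Clopper-Pearson 95% interval 0.692 to 1.21) and 0.286% of the mutant library (0.17 to 0.452), a mutant to control ratio of 0.31 (0.171 to 0.538). Astrocytes by an equivalent marker rule, at least 3 of 6 markers with 2 UMIs, had nearly the same ratio, 0.339 (0.291 to 0.395), from 637 and 237 barcodes. Border macrophages, in which Mrc1 drives Cre, had a ratio of 0.322 (0.243 to 0.423), from 204 and 72 barcodes. Microglia stood at 0.987 (0.943 to 1.03), fibroblasts at 2.66 (2.09 to 3.4) and choroid plexus epithelium at 1.6 (1.45 to 1.78). How many cells of each gate were loaded per library is not given in the sources used here, so a change in the tissue and a change in what was loaded cannot be told apart. With a mitochondrial limit of 5%, which left 8 control and 7 mutant members, the ratio was 0.806 (0.249 to 2.54).

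RNA of other cell types was present in about the same share of members in both libraries. Over 3000 CPM of the summed markers of another type, a level chosen after the values were seen, were held by 14 of 53 control (26.4%) and 5 of 18 mutant members (27.8%). Microglial markers passed this level in 5 control and 2 mutant members, astrocyte markers in 6 and 1, choroid plexus markers in 3 and 3, and border macrophage markers in 1 and 0, with 1 member per library over 2 lists. The highest microglial sums were 22858 CPM in control and 40872 CPM in mutant members, against class medians of 54276 and 50912 CPM in microglia themselves. The highest astrocyte sums were 16947 and 3557 CPM, against 23321 and 22408 CPM in astrocytes. Microglial RNA above this level was found in 9.43% of control and 11.1% of mutant members, in 3.61% and 3.38% of astrocytes, in 33.9% and 29.2% of endothelial cells and in 1.64% and 1.49% of choroid plexus cells, which differed in depth from the members. Choroid plexus RNA passed it in 5.66% and 16.7% of members, but in 24.2% and 29.2% of microglia and 20.6% and 26.6% of astrocytes. Astrocyte RNA passed it in 11.3% and 5.56% of members and in 1.74% and 0.586% of microglia. RNA of any other type passed it in 26.7% and 31.1% of microglia and 26.1% and 36.3% of astrocytes. A share like that of the members was thus not particular to them. Members with other RNA also held RNA of myelin lipid synthesis, at a lower level: Ugt8a, whose enzyme makes galactosylceramide, stood at 970 CPM (822 to 1136) over the 7 members with microglial RNA and at 857 CPM (733 to 996) over the 7 with astrocyte RNA. Over the 6 with choroid plexus RNA, of which 5 held it, Ugt8a stood at 444 CPM (339 to 571). In the 52 members below the level it stood at 1567 CPM (1493 to 1644).

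The remaining 39 control and 13 mutant members had low sums of other types' markers, which follows from the cut. Over all members, 21 control and 7 mutant barcodes met the marker rule of another type, against 14 and 5 over 3000 CPM. Some members below 3000 CPM therefore met such a rule too. The values that follow are for all members below 3000 CPM. Their microglial sums ran from 158 to 867 CPM in the control and from 142 to 655 CPM in the mutant library, and their astrocyte sums reached at most 1054 and 298 CPM. The choroid plexus sum, led by the abundant transthyretin transcript Ttr, had medians of 1175 and 1703 CPM. Median endothelial, mural, fibroblast and border macrophage sums were 0 in both libraries, with highest values of 304 CPM or less. Pecam1 (endothelial), Pdgfrb and Rgs5 (mural), Lum and Col3a1 (fibroblast) were at 0 in all 52. Prx, a gene of the Schwann cells that myelinate peripheral nerve, was at 0 as well. It belongs to a sum of 10 Schwann cell markers, of which 6 were at 0 in the control and 7 in the mutant library. That sum had medians of 237 and 350 CPM and highest values of 836 and 702 CPM. The Scrublet doublet caller marked 0 members, but it marked 3 control barcodes in all (0.0522%), so it had not worked in that library. In the mutant library it marked 110 barcodes (1.75%).

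**Figure D2:**
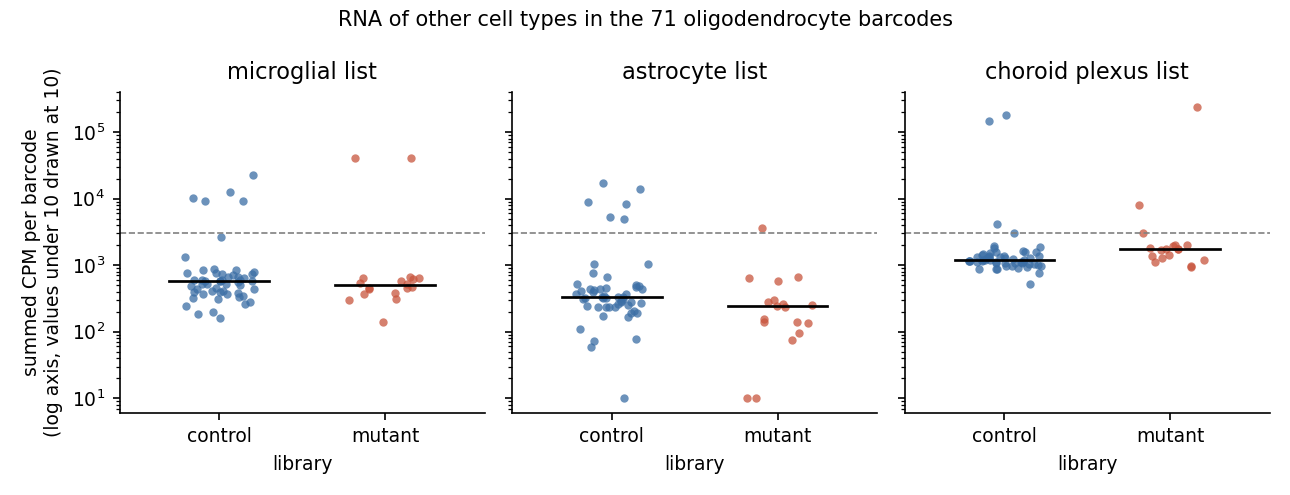
Summed CPM of microglial, astrocyte and choroid plexus markers in each of the 53 control and 18 mutant oligodendrocyte barcodes (log axis, values under 10 drawn at 10, black bars are medians, the dashed line marks 3000 CPM). A few barcodes of each library stand far above the rest, up to 40872 CPM for microglial and 241702 CPM for choroid plexus markers.

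Members with astrocyte or microglial RNA also carried a surface antigen gene of that type, whereas most members below 3000 CPM carried none. The members were split by other genes of the same types, so this is a description and no test. The sort antigens are encoded by Anpep (CD13), Pdgfra (CD140a), Pecam1 (CD31), Atp1b2 (the ACSA-2 epitope), Itgam (CD11b) and Adgre1 (F4/80). Of the 52 members below 3000 CPM, 33 held 0 UMIs of these 6 genes, 14 held 1 and 5 held 2. All 7 members with astrocyte RNA held at least 2 UMIs of the 6 genes together, up to 49 in 1 barcode. All 7 with microglial RNA held at least 2 as well, up to 15, with Itgam found in 6 of the 7 and Adgre1 in 4. Atp1b2 stood at 681 CPM (571 to 806) in members with astrocyte RNA, at 13.9 CPM (7.8 to 23) in the 52, and at 1605 CPM in astrocytes. Its 15 UMIs in the 52 came from 11 control cells and 0 mutant cells. Itgam stood at 184 CPM (123 to 264) in members with microglial RNA, at 4.64 CPM (1.51 to 10.8) in the 52, and at 443 CPM in microglia. Anpep, Pdgfra and Pecam1 had 0 UMIs in the 52, and a floor of 3 counts there corresponds to 2.79 CPM. The sum of the 6 genes was 170 CPM in control and 44.1 CPM in mutant members, and without the members over 3000 CPM it was 28.5 and 3.71 CPM. RNA of a cell attached to or captured with the oligodendrocyte and RNA of its own cannot be told apart here, and RNA counts do not measure the surface protein.

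Ugt8a, Fa2h and Gal3st1, which act in making the O4 antigen, were by contrast found in most members. Ugt8a stood at 1400 CPM in 52 of 53 control members and at 1106 CPM in 18 of 18 mutant members, 822-fold above the highest other type, astrocytes. Fa2h, the fatty acid hydroxylase that supplies the hydroxylated form, stood at 649 and 532 CPM, 767-fold above astrocytes. Gal3st1, the sulfotransferase that turns galactosylceramide into sulfatide, stood at 257 CPM in 48 control members and at 161 CPM in 16 mutant members. The other genes of the O4 synthesis list varied among the 52 members below 3000 CPM. Degs1 was found in 52 and Cers2 in 51, but Sptlc2, Kdsr and Cerk in 37 each, Sptlc1 in 27 and Arsa in 15. Cerk and Sptlc2 stood at 95.7 and 92 CPM in the 52, and at 189 and 119 CPM in microglia. The mutant to control ratio of Gal3st1 was 0.625 (0.468 to 0.824), and 0.707 (0.519 to 0.95) among members below 3000 CPM, which is within 1.5-fold. Of 9 measured genes of the O4 synthesis list 1 was higher and 1 lower by a size rule (at least 1.5-fold with an interval that excludes 1, in genes with at least 50 UMIs), with a median log2 ratio of -0.01, against 2.85% higher and 5.12% lower over all 4625 genes measured. The higher 1 was Cerk, the ceramide kinase gene, at 69 and 130 CPM (1.88, 1.29 to 2.71). Below 3000 CPM 2 of 8 were higher, Cerk at 2.32 (1.54 to 3.49) and Sptlc2, a subunit gene of serine palmitoyltransferase, at 1.57, and 0 were lower. Over all 3549 genes measured there 4.2% were higher and 3.75% lower.

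**Figure D3:**
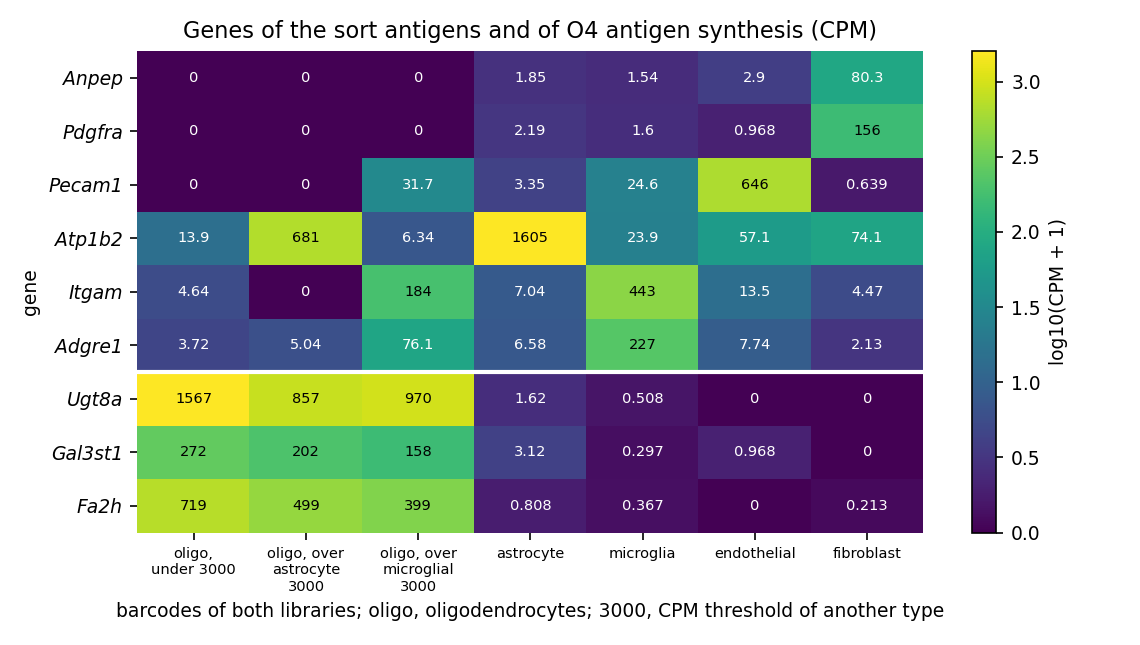
CPM, over both libraries, of the 6 sort antigen genes (upper rows) and 3 genes of O4 antigen synthesis (lower rows) in oligodendrocyte barcodes split at 3000 CPM of another type's markers and in 4 other types. Members over 3000 CPM of choroid plexus markers are not drawn as a column. Colour is log10(CPM + 1): Atp1b2 is at 681 CPM and Itgam at 184 CPM in the matching oligodendrocyte columns and at 13.9 and 4.64 CPM in the first column, while Ugt8a, Gal3st1 and Fa2h are high in all 3 oligodendrocyte columns.

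The genes with the highest levels relative to other types included 4 markers of the rule. Ranked by the ratio of the members' CPM to the highest other type, among genes with at least 100 CPM in both libraries, Opalin came first at 653 CPM in control and 898 CPM in mutant members, 1804-fold above microglia. It was a marker of the rule, as were Ermn (1736 and 1412 CPM, 788-fold), which organises the oligodendrocyte cytoskeleton, Mog (1451 and 1274 CPM, 727-fold) and Mobp (1371 and 1103 CPM, 101-fold). Genes the rule did not use were Slc24a2, a sodium, calcium and potassium exchanger, at 2535 and 2284 CPM (1055-fold), and Hapln2, a linker of the matrix at nodes of Ranvier, at 336 and 226 CPM (863-fold). St18, a zinc finger transcription factor gene, stood at 1139 and 1173 CPM (262-fold). These values describe the members and are no test, since the members were chosen by correlated genes.

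The progenitor list of 17 genes had a summed level of 419 CPM in control and 101 CPM in mutant members, and of 104 and 63.1 CPM among members below 3000 CPM. In 5 of the 17 the members held 50 UMIs or more, led by Ptprz1 at 140 and 23.4 CPM, against 2545 CPM in astrocytes. The genes named next were picked for their low counts. Pdgfra, the receptor that marks oligodendrocyte progenitors, had 1 UMI in all 71 members, Cspg4 had 3, and Gpr17, a receptor of newly committed cells, had 1. The proliferation genes Mki67 and Top2a had 1 and 0 UMIs. Transcription factors of the lineage were present throughout: Olig1 stood at 589 CPM in 52 control members and 610 CPM in 17 mutant members, Sox10 at 296 CPM in 51 and 257 CPM in 16, and Myrf at 233 CPM in 52 and 231 CPM in 17. Myrf was 224-fold above astrocytes and Sox10 27.6-fold, whereas Olig2, at 136 and 106 CPM, was 1.8-fold above them. Enpp6, a choline phosphodiesterase best known from newly forming oligodendrocytes, was nevertheless found in 38 control and 10 mutant members, at 274 and 130 CPM.

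Ligands and receptors of the targeted pathway were measured in the same barcodes. Csf1, the ligand made by many cell types, had 97 UMIs in 34 of the 39 control and 30 UMIs in 11 of the 13 mutant members below 3000 CPM. Over all members it stood at 104 CPM in control and 88.2 CPM in mutant members, 2.19-fold above the next type, fibroblasts, with a mutant to control ratio of 0.849 (0.562 to 1.25). Il34, the other ligand, had 0 UMIs in all members. Csf1r had 121 UMIs in control members, of which 22 lay in the 39 below 3000 CPM. In the mutant library it had 20, of which 4 lay in the 13. Thinned to 2000 UMIs per barcode, 7.69% of the 39 and 0% of the 13 (0 of 13, upper bound 24.7%) held a Csf1r UMI, against 96.3% and 94.7% of microglia. The list of disease-associated oligodendrocyte genes, 3 of which had 50 UMIs or more, summed to 870 CPM in control and 953 CPM in mutant members, mostly from Il33, Cd63 and B2m, whereas Serpina3n had 3 and 2 UMIs and C4b 8 and 2. Immediate early genes, 5 of which had 50 UMIs or more, summed to 836 and 820 CPM, led by Jund at 516 and 491 CPM, whereas Fos had 6 and 4 UMIs.

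Klk6 and Il33 marked largely different members. Among the 52 members below 3000 CPM, 12 held 2 or more Klk6 UMIs and 29 held 2 or more Il33 UMIs, but 2 held both and 13 held neither. Klk6 counts in the 12 ran from 2 to 121 UMIs, and a further 3 members held exactly 1. The Klk6 cells were 9 of 39 in the control (23.1%, 11.1 to 39.3) and 3 of 13 in the mutant library (23.1%, 5.04 to 53.8). The intervals are wide enough that a large difference in either direction would not have been detectable. They were deeper, with a median of 25244 UMIs against 17586 in the other 40. Thinned to 2000 UMIs, a Klk6 UMI was found in 15.4% of the 39 control and 15.4% of the 13 mutant members, against 28.2% and 30.8% unthinned. It was found in 0% of 1000 thinned microglia of each library (upper bound 0.368%).

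Klk6 cells had little Ptgds and little Opalin. Ptgds stood at 1109 CPM over the 12 Klk6 cells, with a median of 87.7 CPM per cell and a range of 0 to 6940. In the other 40 cells it stood at 14575 CPM, with a median of 10740 CPM per cell and a range of 0 to 51518. The ratio of the sums was 0.0761 (0.0685 to 0.0842). The ranges overlapped, and 2 of the control Klk6 cells, those with Il33 as well, accounted for most of the Ptgds UMIs, 142 and 167 of 384. Opalin, although a marker of the rule, stood at 170 CPM in Klk6 cells with a median of 46.4 CPM and at 1053 CPM in the others with a median of 1031 CPM, a ratio of 0.162 (0.122 to 0.211). Il33 stood at 83.7 against 501 CPM (0.167, 0.11 to 0.244). The tetraspanin genes Cd9 (86.6 against 546 CPM) and Cd63 (86.6 against 349 CPM) and the cadherin gene Cdh6 (2.89 against 72.6 CPM) were lower in Klk6 cells too, as was the lipid carrier gene Apoe (159 against 755 CPM).

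Klk6 cells were richer in a second group of genes. S100b, a calcium-binding protein gene, stood at 1227 CPM in Klk6 cells, all 12 of which held it, and at 142 CPM in the others (ratio 8.62, 6.94 to 10.8). Anxa5, a phosphatidylserine-binding annexin, stood at 364 against 50.7 CPM (7.18, 4.94 to 10.7), and Hopx, a homeodomain co-factor, at 170 against 13.7 CPM (12.4, 6.31 to 27.3). Enpp6 stood at 552 CPM in all 12 against 167 CPM in 23 of the 40 (3.3, 2.62 to 4.18), and Tfrc, the transferrin receptor, at 110 against 31.5 CPM (3.48, 2.02 to 6.13). Gjb1, which encodes connexin 32, stood at 641 against 281 CPM (2.28, 1.88 to 2.77). Dlc1, a GTPase-activating protein gene, had 81 UMIs in 3 Klk6 cells and 0 in the other 40, at least 56.9-fold higher against a floor of 3 counts over the 40. A single control cell of 53238 UMIs held 121 of the 268 Klk6 UMIs, 41 of 59 Hopx, 60 of 126 Anxa5, 51 of 81 Dlc1 and 141 of 425 S100b UMIs.

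Myelin genes were then compared between Klk6 cells and the others. Mog, a marker of the rule, stood at 1453 against 1691 CPM, Mbp at 4242 against 3952 CPM, Myrf at 248 against 278 CPM and Bcas1, an early myelin gene, at 436 against 457 CPM. By the size rule 2 of 27 measured myelin protein genes were higher (7.41%) and 5 lower (18.5%) in Klk6 cells, with a median log2 ratio of -0.11. Those lower included Mal (3191 against 5382 CPM) and Tspan2 (1002 against 1531 CPM). Over all 3549 genes measured the same rule gave 8.59% higher and 5.13% lower, with a median of 0.05. All 5 measured genes of the fixed Klk6 list, Klk6 included, were higher and 7 of 13 of the Ptgds list were lower; 4 of 15 cholesterol synthesis genes were higher and 1 lower (median log2 ratio 0.34). Both lists and the cut at Klk6 describe a known split, and the cells were chosen by Klk6, so the counts carry no test.

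**Figure D4:**
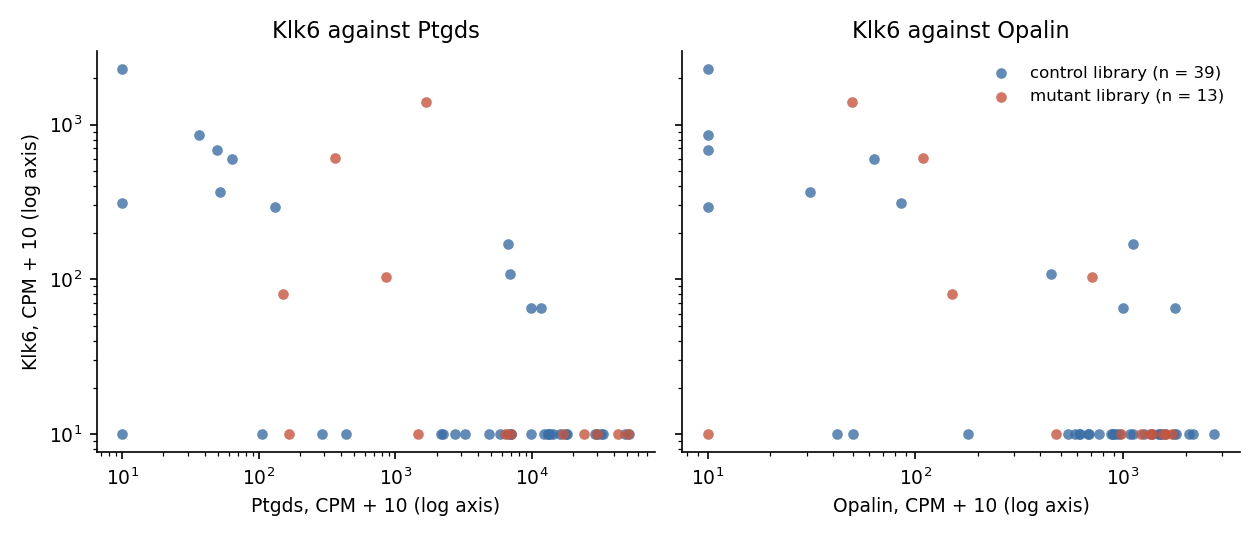
Klk6 against Ptgds (left) and Opalin (right) in the 39 control and 13 mutant oligodendrocyte barcodes below 3000 CPM of other types' markers, as CPM + 10 on log axes. The control cells with the most Klk6 lie at the left of both panels, the mutant cell with the most Klk6 lies near the middle of the Ptgds panel, and cells with 0 Klk6 UMIs lie mostly at the right, with a few of both libraries further left.

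The 6 markers of the rule, which chose the members, had mutant to control ratios from 0.805 (0.722 to 0.896) for Mobp to 1.38 (1.21 to 1.56) for Opalin, as a description. Mbp, the myelin basic protein gene, stood at 3710 and 3096 CPM (0.835, 0.782 to 0.89), and Cnp, a phosphodiesterase of non-compact myelin, at 3094 and 3068 CPM (0.992, 0.928 to 1.06). Among 27 measured myelin protein genes 0 were higher and 1 lower by the size rule, and the lower 1 was Tppp3, a tubulin-binding protein gene, at 271 and 148 CPM (0.546, 0.404 to 0.725). Among 11 measured transcription factors 0 were higher and 0 lower, with a median log2 ratio of -0.01. Gap junction and potassium channel genes had 0 higher and 0 lower of 9, heat shock genes 0 and 0 of 9. Over all 4625 genes measured the rule called 2.85% higher and 5.12% lower. Counts of 0 or 1 in lists of this size therefore lie near the background and nothing is read from them. The list of myelin-forming to mature genes had 1 higher and 7 lower of 27 measured. Below 3000 CPM it had 1 and 6 of 24, against 4.2% and 3.75% over all genes. Without Klk6 cells as well it had 1 and 2 of 20, against 167 and 86 of 2503. The cause was not tested.

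Over all members 4625 genes were measured, of which 132 were higher (2.85%) and 237 lower (5.12%) in the mutant library by the size rule, with a median log2 ratio of -0.04. With trimmed-mean scaling these were 161 and 189. Among the members below 3000 CPM 3549 were measured, of which 149 were higher (4.2%) and 133 lower (3.75%). The sets shared 56 higher and 81 lower genes. Intervals cover counting error only and not the spread between cells or animals, so these counts bound no difference between genotypes.

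Lists of lipid and structural genes had at most 4 members called in either direction, against 2.85% higher and 5.12% lower over all 4625 genes. The lower calls, 4 of 23 fatty acid and lipid genes and 4 of 24 cytoskeleton genes, were above that share. Below 3000 CPM the fatty acid and lipid list had 2 higher and 2 lower of 23. The cytoskeleton list there had 0 and 4 of 23, against 4.2% and 3.75% over all genes. Of 16 measured cholesterol synthesis genes 0 were higher and 1 lower, Ebp, a sterol isomerase gene, at 112 and 72.7 CPM (0.651, 0.417 to 0.985). Of 23 measured fatty acid and lipid genes 3 were higher and 4 lower, with a median log2 ratio of -0.29. The lower 4 were Plin3, a lipid droplet protein gene (232 and 109 CPM, 0.47, 0.331 to 0.653), the desaturase gene Scd1 (145 and 83.1 CPM, 0.573, 0.38 to 0.84), the fatty acid synthase gene Fasn (113 and 70.1 CPM, 0.618, 0.393 to 0.94) and Gal3st1. Of 24 cytoskeleton genes 0 were higher and 4 lower (median log2 ratio -0.23), among them the tubulin gene Tuba1a (743 and 423 CPM, 0.569, 0.479 to 0.674) and Gsn, the actin-severing gelsolin gene (971 and 631 CPM, 0.65, 0.563 to 0.747). The iron storage gene Fth1 stood at 18204 and 13388 CPM (0.735, 0.713 to 0.758), within 1.5-fold.

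Kctd16, a partner of the GABA-B receptor, had the highest ratio among the 10 leading higher genes, at 25.6 CPM in 10 control and 153 CPM in 10 mutant members (5.99, 3.8 to 9.63). The ratio was 5.87 (3.63 to 9.71) among members below 3000 CPM, 6.96 (4.02 to 12.5) without the barcode of most UMIs in each library, and 56.7 at a mitochondrial limit of 5%. Ptgds stood at 8022 CPM in control and 14239 CPM in mutant members (1.77, 1.72 to 1.84), but the per-barcode medians were 6617 and 6424 CPM and the ranges, 0 to 51518 and 140 to 50731 CPM, overlapped almost entirely. With equal weight per cell the ratio was 1.47, and among members below 3000 CPM with Klk6 under 2 UMIs it was 1.54 (1.48 to 1.6). Grm7, a metabotropic glutamate receptor gene, stood at 425 and 916 CPM (2.15, 1.87 to 2.47), with medians of 148 and 179 CPM and 39.1% of the mutant UMIs in 1 barcode, and a ratio of 1.5 without the barcode of most UMIs in each library. At a mitochondrial limit of 5%, with 8 and 7 barcodes, the ratios were 10.4 for Ptgds and 10.6 for Grm7. The 8 control barcodes included Klk6 cells with 7, 17, 17, 32 and 121 Klk6 UMIs, which held 0 to 3 Ptgds UMIs. In the 7 mutant barcodes the highest Klk6 count was 2 UMIs. The limit thus changed the mix of cells, and its part in the ratios at this limit was not tested. Cadps, a gene of vesicle priming, had a ratio of 2.74 (1.93 to 3.9) and the protocadherin gene Pcdh15 of 2.32 (1.76 to 3.05). Fam13c followed at 2.23 (1.76 to 2.81) and Fmn1, which encodes an actin-nucleating formin, at 2.57 (1.62 to 4.05).

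For 3 of the 10 leading higher genes the difference was small or its interval included 1 once members over 3000 CPM were left out. Enpp2, the autotaxin gene, which choroid plexus epithelium expressed at 15320 CPM, stood at 2325 and 4405 CPM (1.89, 1.78 to 2.01), but 55.2% of the mutant UMIs lay in 1 barcode, and the ratio below 3000 CPM was 1.15 (1.05 to 1.25). Ifi27, an interferon-inducible gene, had a ratio of 2.23 (1.57 to 3.15) in all members and 1.56 (0.921 to 2.58) below 3000 CPM, with 50% of its mutant UMIs in 1 barcode. Nucb1, a Golgi calcium-binding protein gene, had a ratio of 2.7 (1.61 to 4.5) in all members and 2.11 (0.921 to 4.69) below 3000 CPM.

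For 7 of the 10 leading lower genes astrocytes were the other type with the highest level. The same share over all measured genes is not given here, so nothing is read from this count. Over 3000 CPM of astrocyte markers were held by 6 of 53 control (11.3%, 4.27 to 23) and 1 of 18 mutant members (5.56%, 0.141 to 27.3). Whether astrocyte RNA accounts for the lower genes was not tested. Aldoc, an astrocyte aldolase, stood at 202 and 49.3 CPM (0.244, 0.144 to 0.39), and at 0.557 (0.226 to 1.2) below 3000 CPM. Htra1, a secreted protease gene, was at 0.281 (0.163 to 0.456) over all and 0.499 (0.217 to 1.02) below 3000 CPM, and Nlgn1, a neuroligin gene, at 0.439 (0.335 to 0.567) and 0.831 (0.614 to 1.11). Shisa9 had 54 control and 0 mutant UMIs, at least 5.91-fold lower against a floor of 3 counts in the mutant library, with 77.8% of the UMIs in 1 control barcode. Ccdc85a, Tubb2b and Zfpm2 had 50, 54 and 71 control UMIs, and were too few to be measured below 3000 CPM. Immp2l, a mitochondrial peptidase gene, was lower both over all members (101 and 20.8 CPM, 0.206, 0.0871 to 0.42) and below 3000 CPM (0.225, 0.0881 to 0.483). Lama2, a laminin gene, was at 0.391 (0.244 to 0.6) and 0.453 (0.259 to 0.747). Its ratio was 0.741 (0.415 to 1.26) without members that also met the marker rule of another type, 0.612 (0.302 to 1.16) at the mitochondrial limit of 5%, and 0.773 with equal weight per cell.

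Below 3000 CPM the leading lower genes included those of the Klk6 cells. S100b stood at 556 CPM in control and 297 CPM in mutant members (0.533, 0.415 to 0.678), Anxa5 at 177 and 74.2 CPM (0.419, 0.248 to 0.671), Hopx at 81.8 and 11.1 CPM (0.136, 0.0274 to 0.415) and Dlc1 at 97.9 and 7.42 CPM (0.0758, 0.00902 to 0.283). Over all members the ratio of Hopx was 0.715 (0.433 to 1.13), and 41 of its 66 control UMIs below 3000 CPM lay in 1 barcode. Of the 81 Dlc1 UMIs 79 lay in 2 control cells. The ratio of Anxa5 was 1.07 (0.607 to 1.82) without members that also met the marker rule of another type. Of the 5 measured genes of the Klk6 list 0 were higher and 4 lower, with a median log2 ratio of -1.25. Over all 3549 genes measured in these members 4.2% were higher and 3.75% lower. Among cells with Klk6 under 2 UMIs S100b was at 0.911 (0.565 to 1.43) and Anxa5 at 0.607 (0.225 to 1.41), and 0 of 1 measured list genes differed. Klk6 itself had a ratio of 0.619 (0.447 to 0.842) over all members and 0.677 (0.488 to 0.924) below 3000 CPM. Its ratio was 2.54 (1.7 to 3.78) once members that also met the marker rule of another type were left out, 0.976 with equal weight per cell, and 0.373 without the barcode of most UMIs in each library, so its direction was not stable. Other lower genes were Rbm8a (100 and 22.3 CPM, 0.222, 0.079 to 0.504), of the exon junction complex, Commd1 (92.9 and 29.7 CPM, 0.319, 0.133 to 0.662), of copper and endosome handling, and Sgk1 (91.7 and 29.7 CPM, 0.324, 0.135 to 0.671), a stress-responsive kinase.

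**Figure D5:**
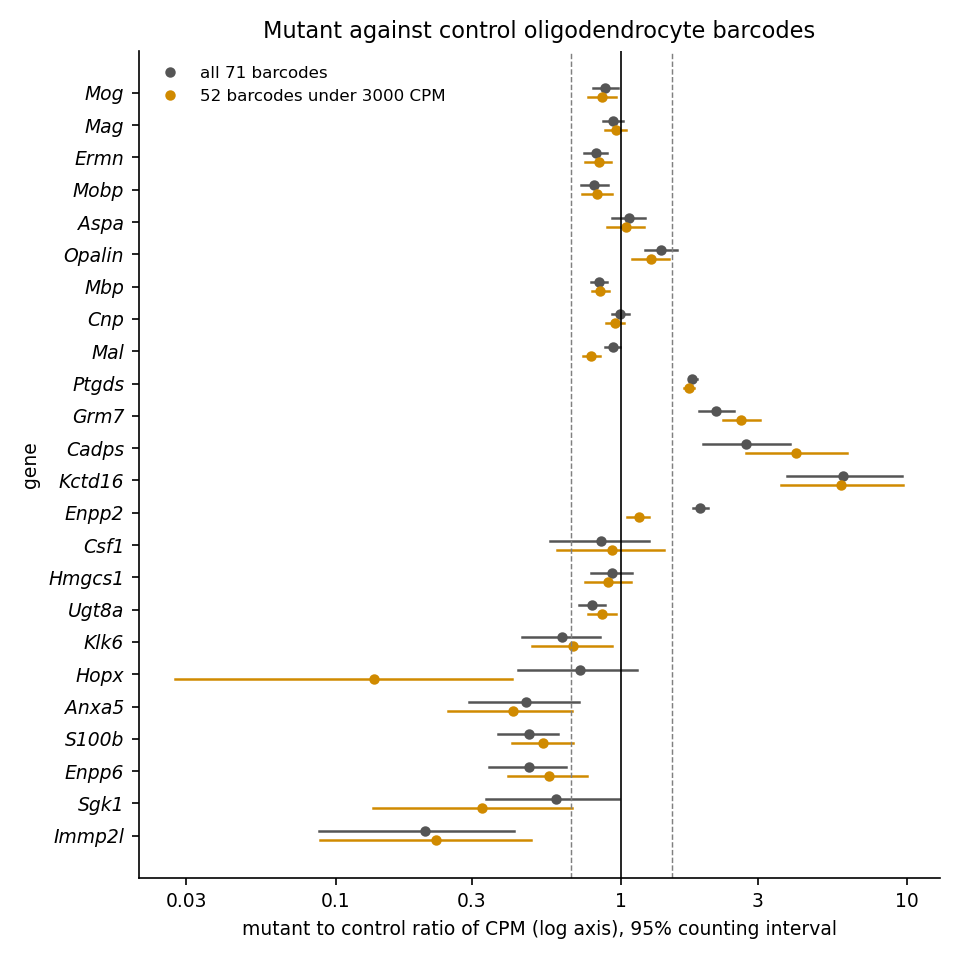
Mutant to control ratio of CPM (log axis) with its 95% counting interval for rule markers, myelin genes and other named genes, over all 71 oligodendrocyte barcodes (grey) and over the 52 below 3000 CPM of other types' markers (orange). The solid line marks 1 and the dashed lines 1.5-fold: the points of the rule markers, Mbp, Cnp and Mal lie between the dashed lines, Enpp2 moves from 1.89 to 1.15, and genes of the Klk6 cells lie below 1, with an interval for Hopx that includes 1 over all members.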

How the data were processed

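Single-cell RNA sequencing was done on sorted mouse whole-brain cells, with 1 library per genotype, by 10x Chromium Next GEM 3′ v3.1 chemistry per the labels. Each deposited matrix gives UMI counts by gene and barcode without normalisation, written by Cell Ranger 7.1.0 per the file headers. The submitters' processing notes name the builds GRCm38.p6 and mm10. The sources used here state neither intron counting nor cell calling nor correction for free RNA. Of 26033 genes, 25637 identifiers matched GENCODE M21, and 312 entries with duplicated symbols were left out.

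From these counts UMIs were summed over members per library and divided by the total (CPM) in Python 3.11.15 with scipy 1.17.1 and scanpy 1.11.5. CPM carry exact Poisson 95% intervals, shares exact Clopper-Pearson intervals, and mutant to control ratios the exact conditional interval of a pair of Poisson counts. All cover counting error only. A gene needed 50 UMIs over both libraries to be measured, and was called higher or lower at 1.5-fold or more where the interval left out 1. Y-linked, haemoglobin, predicted, ribosomal protein and mitochondrial genes were not called, and 229 genes at under 10% of the CPM of another type were counted apart (37 higher, 82 lower). Other types were barcodes with at least 3 of 6 of their markers at 2 UMIs. Named genes were the rule markers, the leading 20 by ratio to other types at 100 CPM, the leading 10 in each direction at 20 CPM by interval bound, and 2 to 6 per fixed list. Cspg4, Mki67, Top2a, Serpina3n, C4b and Fos were named for their low counts after these were seen. The size rule was run on simulated Poisson counts with no spread between cells. That run cannot show how the rule behaves where single cells hold much of a sum. The members, lists and tests were chosen with earlier results of these data known. Alternatives varied the mitochondrial limit, markers, UMI minimum, scaling, doublets, weighting and thinning. Shares of cells with a UMI were compared after thinning to 2000 UMIs. A few genes that met the naming rule are not reported here.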

Additional observations from a re-analysis of the deposited data

How the results depend on the processing

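With a mitochondrial limit of 5% there were 8 control and 7 mutant oligodendrocytes, with a share ratio of 0.806, and without barcodes that also met another type's marker rule 32 and 11; without members over 3000 CPM there were 39 and 13, with a ratio of 0.304. The other limits tried gave 52 to 69 and 17 to 22, and ratios of 0.28 to 0.323. Genes higher in the mutant numbered 71 with at least 100 UMIs per gene and 356 with equal weight per cell by fold alone, against 132. Lower genes numbered 147 with at least 100 UMIs, 144 at the 5% limit, 70 without barcodes meeting another rule, 133 without members over 3000 CPM, 86 when Klk6 cells were left out as well, and 444 with equal weight per cell, against 237. Fewer cells or genes entered all but the last of these. Equal weight per cell used the 1.5-fold limit alone, without an interval. Its counts of 356 and 444 therefore follow a looser rule than 132 and 237. Of 40 named gene ratios at the 5% limit, 33 moved outside the main interval on the same side of 1 or had not been called, 2 changed direction and 5 stayed inside it. Among genes called by the size rule the direction changed for Anxa5 (1.07) and Klk6 (2.54) without barcodes meeting another rule, for Htra1 (1.52) and Ifi27 (0.759) at the 5% limit, and for Klk6 and Tubb2b (1.3 each) without Klk6 cells, where few UMIs were left; the cause was not tested. Ratios that had not been called crossed 1 as well, among them Il33 (42.5, 11.1 to 363, at the 5% limit), Hmgcs1 (1.46, 1.18 to 1.8, without barcodes meeting another rule) and Csf1 (1.18 with equal weight per cell). At the 5% limit the control members included Klk6 cells with 7, 17, 17, 32 and 121 Klk6 UMIs, which held 0 Il33 UMIs. The highest Klk6 count in a mutant member there was 2 UMIs. The part of this mix of cells in the Il33 ratio was not tested. Summed sort antigen CPM fell to 28.6 and 5.08 without barcodes meeting another rule, and to 28.5 and 3.71 without members over 3000 CPM. Thinned to 1000 UMIs, 5.13% of control members held a Klk6 UMI. The alternatives at 3000 CPM, without Klk6 cells and at 5000 UMIs were chosen after seeing the data. No paired analysis was possible because each genotype had 1 library. The 18 mutant barcodes limit every ratio.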
